A study of Rattus norvegicus with 20 samples.

Results

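The natriuretic peptide system of the heart was followed here through 6 genes: Nppa and Nppb, which encode the peptide precursors, Corin, which encodes a processing protease, and the receptor genes Npr1, Npr2 and Npr3. They were picked by gene symbol from a table of 18282 RefSeq transcript IDs, and each symbol had 1 ID (Nppa NM_012612, Nppb NM_031545, Corin NM_182473, Npr1 NM_012613, Npr2 NM_053838, Npr3 NM_012868). Total RNA was sequenced from the right ventricle of Wistar rats, an outbred laboratory strain, after pulmonary banding, which narrows the outflow of that ventricle and makes it pump against a higher pressure, or after a sham operation. Tissue was taken 4 weeks after surgery at 7 weeks of age (5 sham and 5 banding libraries) or 8 weeks after surgery at 11 weeks of age (5 sham and 4 banding libraries, with replicate 2 of banding not analysed here). All groups had surgery, none carried a transgene, and time after surgery and age cannot be told apart. The labels number the replicates without saying that each is another animal, so p-values measure the spread between these samples.

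Atrial natriuretic peptide (ANP, from Nppa) and B-type natriuretic peptide (BNP, from Nppb) are hormones of heart muscle cells that lower blood pressure and promote salt excretion. The adult ventricle makes little ANP at rest, and both peptides are classical markers of a stretched or overloaded chamber. Corin is a protease on the surface of heart muscle cells that cleaves the ANP precursor into the active hormone. ANP and BNP act through the receptor encoded by Npr1, a guanylyl cyclase that makes the second messenger cGMP. Npr2 encodes the related cyclase for the C-type peptide. The receptor encoded by Npr3 has no cyclase domain and takes up all of these peptides for breakdown.

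Both peptide genes lie side by side on rat chromosome 5, with 0 annotated genes between them, and their promoters are printed because these genes showed the widest differences between groups. The windows, from RefSeq on the assembly GRCr8, hold 250 bases before and 50 bases after the annotated start, on the plus strand at chr5:163711934-163712233 for Nppa and at chr5:163699758-163700057 for Nppb. Capitals mark the motif GATAA, bound by GATA factors, and the motif CATTCC, bound by TEAD factors, on either strand, so a CATTCC on the minus strand reads GGAATG here.
Nppa: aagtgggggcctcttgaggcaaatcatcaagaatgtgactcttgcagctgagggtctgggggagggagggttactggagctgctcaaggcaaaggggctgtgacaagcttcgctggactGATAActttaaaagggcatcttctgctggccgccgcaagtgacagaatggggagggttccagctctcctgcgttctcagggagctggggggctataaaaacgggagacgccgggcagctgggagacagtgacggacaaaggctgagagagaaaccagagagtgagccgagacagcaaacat
Nppb: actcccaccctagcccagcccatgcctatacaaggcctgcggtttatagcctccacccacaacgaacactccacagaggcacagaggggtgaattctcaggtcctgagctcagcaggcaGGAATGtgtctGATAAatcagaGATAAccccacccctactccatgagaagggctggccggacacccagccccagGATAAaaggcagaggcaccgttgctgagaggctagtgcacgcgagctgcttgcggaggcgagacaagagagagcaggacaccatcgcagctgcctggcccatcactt

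The Nppa window held 1 GATAA, at -131 from the start, and no CATTCC. The Nppb window held 3 GATAA, at -120, -109 and -57, and 1 CATTCC on the minus strand at -131. Searched on both strands, GATAA occurred in 26.5% of 33469 promoter windows of this length and at least 3 times in 1.02% of them, CATTCC occurred in 14.2%, and both together in 4.11%. Also searched were AAGTG, the core of the NKX2-5 site, present in 46.2% of windows, and TATAAA, the TATA box, present in 14.2%. Nppa had AAGTG at -250 and -95 and TATAAA at -39, all on the plus strand, while Nppb had AAGTG at 46 and TATAAA at -208, both on the minus strand. No 2 matches overlapped. Of the other members, 3 had a window (Npr1, Npr3 and Corin), in which the only match was an AAGTG in Npr3 at 37 on the minus strand. A match describes the letters of the window and is not evidence of binding.

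Reads recovered from the deposited values numbered 2.70 to 8.54 M per library, with a median of 5.79 M. The 6 members held from 77 (Nppa) and 78 (Nppb) up to 52292 reads (Nppa) in a library, so that none was near the limit of detection. Markers of the ventricle were present in every library, with Myl2, the ventricular myosin light chain, between 26890 and 51280 normalized counts and the ventricular transcription factors Irx4 between 181 and 417 and Hey2 between 74.5 and 196. Transcripts of atrial muscle varied between libraries of every group: Myl7, the atrial myosin light chain, was above 1000 in 7 of 19 libraries (2 of 5 in sham and 1 of 5 in banding at 4 weeks, 3 of 5 in sham and 1 of 4 in banding at 8 weeks). Results of the members are also given without these 7 libraries, called rich in Myl7 here. In a bulk sample, more or fewer cells of a type and more or less RNA per cell cannot be told apart.

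Banded ventricles held more of both peptide transcripts and less Corin at both times, and more Npr3 at 8 weeks. The cyclase receptor genes Npr1 and Npr2 were not called at either time. At 4 weeks 3 of the 6 members passed an adjusted p of 0.05 (limma over 10926 IDs), 2 higher and 1 lower, where 19.1% of all IDs passed (9.27% higher and 9.82% lower). At 8 weeks 4 of 6 passed, 3 higher and 1 lower, where 33.4% of all IDs passed (16.7% higher and 16.6% lower). Count models fitted to the recovered reads, edgeR and DESeq2, called 2 members at 4 weeks and 3 at 8 weeks, and the member that they did not call was Nppa.

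**Figure D1:**
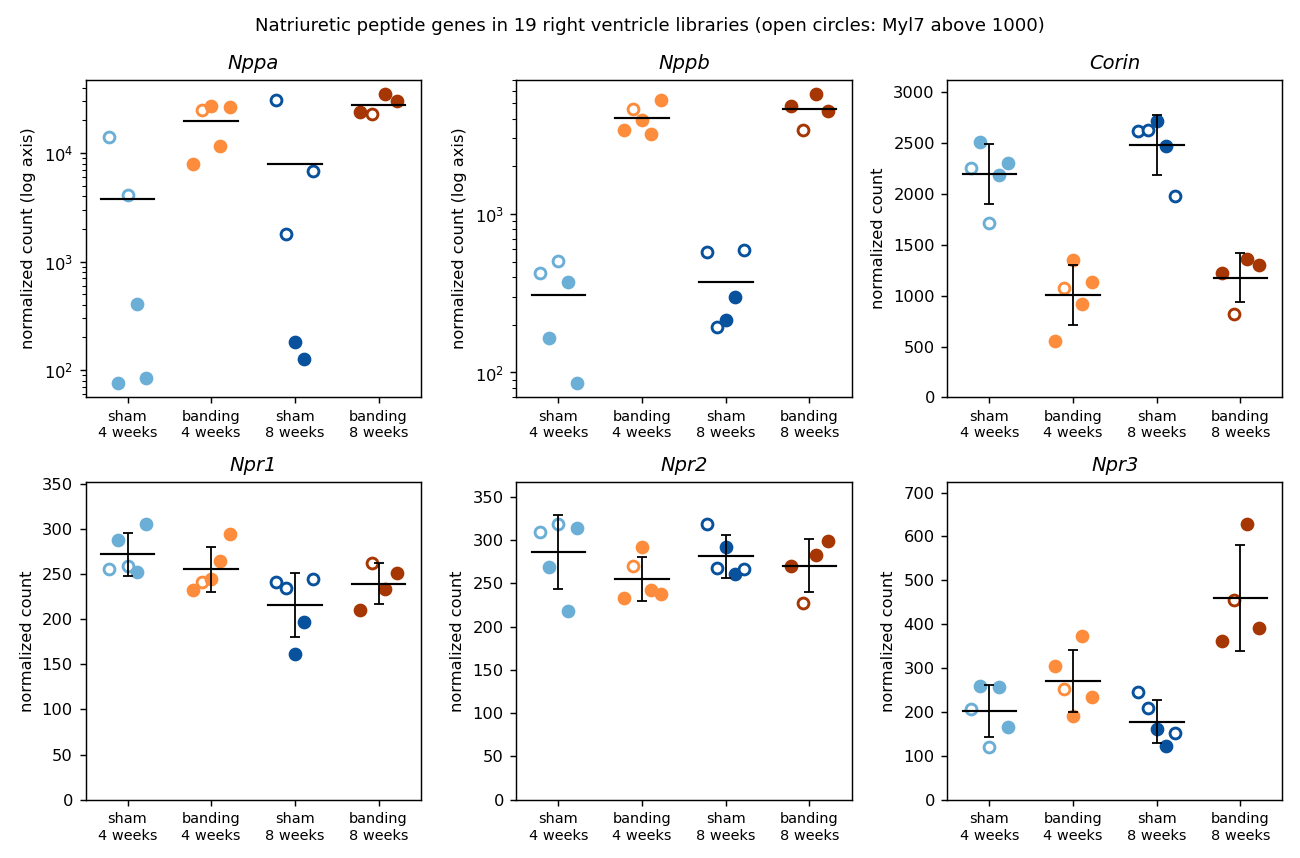
Normalized counts of the 6 members, 1 circle per library, in sham and banding at 4 and 8 weeks. Horizontal lines are group means, with SD bars in the panels with a linear axis (Corin, Npr1, Npr2, Npr3); Nppa and Nppb have a log axis and no SD bars, and open circles are the 7 libraries with Myl7 above 1000. Banding libraries of Nppb lie between 3181 and 5701 and sham libraries between 85.9 and 591.

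Nppb, the BNP gene, was measured in sham at 4 weeks at 425, 165, 502, 372 and 85.9 normalized counts in replicates 1 to 5. In banding at 4 weeks the 5 libraries held 3363, 4603, 3939, 3181 and 5213. The lowest banded library was thus above every sham library, and the spread was relatively smaller in banding (the highest library was 1.64 times the lowest) than in sham (5.85 times). At 8 weeks sham libraries held 577, 195, 213, 297 and 591, and banding libraries held 4800, 3376.5, 5701 and 4469. Again no sham library came near a banded one. The ratio of group means was 13.1 at 4 weeks and 12.2 at 8 weeks. On the log2(value + 1) scale the rise was 3.95 ± 0.37 (SE, adjusted p = 1.16e-07 in limma) at 4 weeks and 3.75 ± 0.40 (adjusted p = 2.07e-07) at 8 weeks. The libraries of both groups did not overlap for Nppb and Corin at 4 weeks, and for Nppb, Npr3 and Corin at 8 weeks. Of all IDs tested, 13.3% did not overlap at 4 weeks and 25.2% at 8 weeks.

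Nppa, the ANP gene, was far more uneven between sham libraries. In sham at 4 weeks replicates 1 to 5 held 14197, 76.2, 4083, 408 and 84.8 normalized counts, and in banding at 4 weeks 7878, 25203, 27403, 11738 and 26642. Replicate 1 of sham was above both replicate 1 and replicate 4 of banding, so that the groups overlapped. In sham at 8 weeks the values were 30976, 1789, 183, 126 and 6913, and in banding at 8 weeks 23715, 22747, 34942 and 30167. Replicate 1 of sham lay above 3 of the 4 banded libraries. The highest sham value was 186 times the lowest at 4 weeks and 246 times at 8 weeks, against 3.48 and 1.54 times within banding. For this gene the size of the difference depended on how libraries were averaged: the ratio of means was 5.24 at 4 weeks and 3.49 at 8 weeks, and the ratio of medians 61.8 and 15.1.

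The rise of Nppa was 4.67 ± 1.3 log2 units at 4 weeks (adjusted p = 0.0138 in limma) and 4.15 ± 1.4 at 8 weeks (adjusted p = 0.0243). Its interval at 8 weeks reached from 1.28 to 7.02, while that of Nppb reached from 2.93 to 4.57. The count models gave smaller changes that were not called, with edgeR at 2.38 (adjusted p = 0.176) and 1.80 (adjusted p = 0.272). In the authors' deposited table of DESeq2 results Nppa stood at 0.32 (adjusted p = 0.342) at 4 weeks and 0.31 (adjusted p = 0.276) at 8 weeks, and Nppb at 2.31 (adjusted p = 8.5e-16) and 2.23 (adjusted p = 1.35e-14). For Nppa these were far below the edgeR values, so the authors' fold changes may be another measure, and their sizes are not compared here. At 8 weeks the limma call was lost without replicate 3 (3.38, adjusted p = 0.0742) or 4 of sham (3.25, adjusted p = 0.0762) or replicate 4 (4.03, adjusted p = 0.052) or 5 of banding (4.10, adjusted p = 0.0521).

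Among libraries of sham, Nppa rose and fell with the atrial transcripts. An atrial score was taken as the mean log2 level of Myl7 and Sln (sarcolipin, a small protein of atrial muscle), centred within each group. Across the 10 sham libraries Nppa changed by 0.98 ± 0.065 log2 units per unit of the score (adjusted p = 1.66e-09 in limma), a slope near 1. Across the 9 banded libraries the slope was 0.11 ± 0.10 (interval -0.11 to 0.32, adjusted p = 0.703), and between 0.03 and 0.31 with any 1 library left out, highest without replicate 3 of banding at 8 weeks. In banding at 4 weeks the 2 libraries lowest in Myl7 (64.2 and 73.3) also held the least Nppa (7878 and 11738). The 5 sham libraries with Myl7 under 1000 showed no climb of Nppa with Myl7: at Myl7 of 41.1, 52.5, 129, 163 and 237 they held 126, 408, 183, 76.2 and 84.8. The slopes differed by -0.87 ± 0.12 (adjusted p = 0.00513), a difference that was passed by 0.0458% of all IDs. Without replicate 3 of banding at 8 weeks it was -0.67 (adjusted p = 0.133), and with Myl7 alone as the score -0.87 (adjusted p = 0.0551). The ratio of Nppa to Myl7 normalized counts lay between 0.358 and 7.76 in the sham libraries and between 9.83 and 1413.5 in the banded ones. It describes the level of Nppa beside Myl7 and does not measure the slopes.

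**Figure D2:**
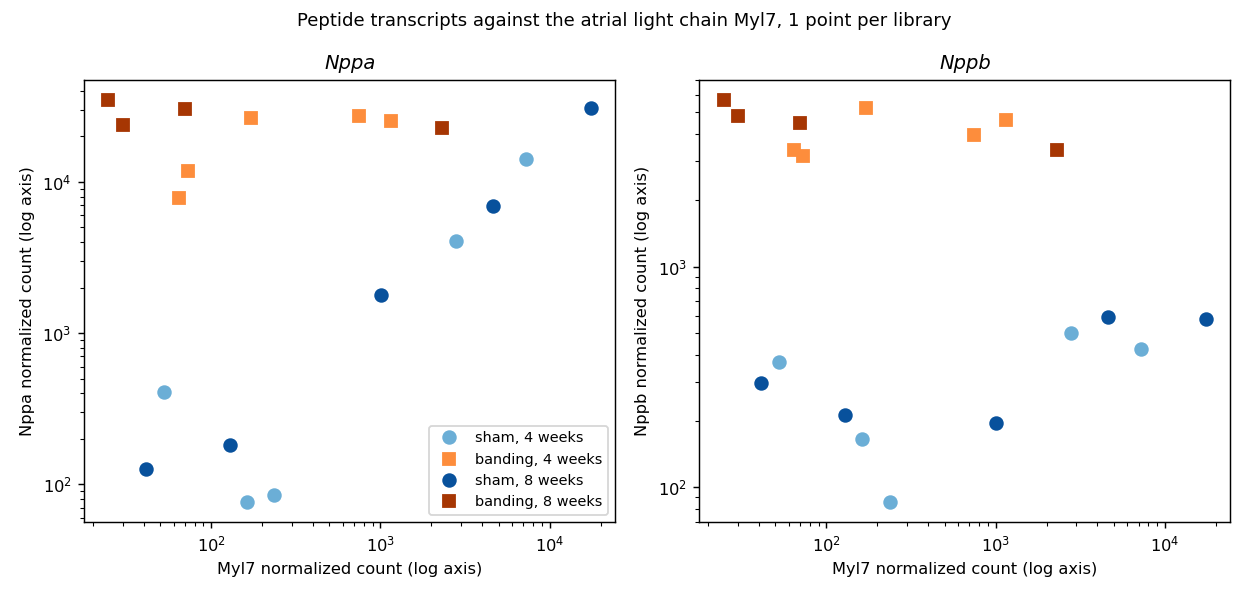
Nppa (left) and Nppb (right) against Myl7, all as normalized counts on log axes, with 1 point per library and 4 groups by colour. Sham circles of Nppa lie between 76.2 and 408 where Myl7 is under 1000 and between 1789 and 30976 above it, and banded squares lie between 7878 and 34942; for Nppb all squares lie above all circles.

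For Nppb the slope on the score in sham was 0.19 ± 0.048 (adjusted p = 0.0283), and it was not called with Myl7 alone as the score (0.16, adjusted p = 0.102) or without any 1 of 5 sham libraries (adjusted p = 0.0519 to 0.0871). Its slope in banding was -0.03 ± 0.077, and the difference of -0.22 ± 0.091 was not called (adjusted p = 0.409). Corin and the receptor genes had slopes with adjusted p from 0.396 to 0.913 in sham, where 4.33% of all IDs were called, and from 0.617 to 0.974 in banding, where 0.0915% were.

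With the 7 libraries rich in Myl7 left out, which leaves 3 sham and 4 banding libraries at 4 weeks and 2 and 3 at 8 weeks, the groups no longer overlapped for Nppa. Its sham libraries then held 76.2 to 408 at 4 weeks and 126 to 183 at 8 weeks, and its banded libraries 7878 to 27403 and 23715 to 34942. The rise became 6.85 log2 units at 4 weeks (adjusted p = 1.06e-07) and 7.58 at 8 weeks (adjusted p = 2.61e-07). The sham libraries left out were those with the most Nppa of each time, so the wider difference follows in part from this choice. Replicate 2 of sham at 8 weeks was over the limit by little, with Myl7 at 1006. Smaller groups also separate more easily, and the share of all IDs without overlap was not taken for them. Nppb rose by 4.46 and 4.30, and Corin fell by 1.31 and 1.00, without these libraries. The summed level of the atrial marker list, with Myl7, Sln, Myl4, Bmp10, Dkk3 and Kcna5 among its genes, ranged from 2054 to 12707 in sham and from 1320 to 4433 in banding at 4 weeks, and from 2067 to 26892 and 2129 to 5988 at 8 weeks. The low end of these sums was mostly Dkk3, with group means between 1924 and 2246. Myl7 alone spanned 138 times in sham at 4 weeks and 428 times at 8 weeks. Of 6 tested genes of the atrial marker list, 1 was called at each time, Kcna5, a potassium channel gene. It was lower in banding by 1.11 and 1.70 log2 units. Kcna5 spanned only 2.19 times in sham at 4 weeks and 2.80 times at 8 weeks, so it did not vary as widely as Myl7. Bmp10, a growth factor of atrial muscle, was at 0 in at least 1 library of each of the 4 groups and reached 1516 in sham at 8 weeks. The part of atrial transcripts in the difference between groups was not tested.

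Because Nppa and Nppb are measured in the same library, their ratio does not move with the scaling of the library. The log2 ratio of Nppb to Nppa was -1.42 ± 2.54 in sham and -2.14 ± 0.61 in banding at 4 weeks (SD, n = 5 each; exact permutation test, 2-sided, p = 0.556, 0.741 adjusted over 4 ratio tests). At 8 weeks it was -2.21 ± 2.87 in sham (n = 5) and -2.61 ± 0.21 in banding (n = 4; exact permutation p = 0.889, adjusted 0.889). Without the libraries rich in Myl7 the difference went from -0.73 to -2.40 at 4 weeks (exact permutation p = 0.0571) and from -0.40 to -3.29 at 8 weeks (exact permutation p = 0.2), each the smallest p that these numbers of libraries can give. Every remaining sham library then lay above every banded one of its time. The sham libraries left out were those with the most Nppa and the lowest ratio of each time. The wider difference and this separation thus follow in part from that choice, and smaller groups also separate more easily. With any 1 library left out the difference at 4 weeks was between -1.64 and -0.0945. Within banding the ratio was narrow at 8 weeks, between -2.75 and -2.30, and in sham it spanned -5.74 to 1.24.

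Corin moved in the opposite direction to its substrate gene. Sham libraries at 4 weeks held 2253, 2511, 1712, 2192 and 2302 normalized counts, and banding libraries 559, 1076, 1353, 921 and 1131. At 8 weeks sham held 2620, 2632, 2718, 2471 and 1980, and banding 1220, 824, 1363 and 1304. Every banded library was below every sham library of its time. The fall was 2.25-fold at 4 weeks, or -1.17 ± 0.17 log2 units (interval -1.53 to -0.81, adjusted p = 4.26e-05 in limma), and 2.13-fold at 8 weeks, or -1.09 ± 0.18 (adjusted p = 8.16e-05). Leaving out any 1 library kept it between -1.29 and -0.97 at 4 weeks and between -1.17 and -0.93 at 8 weeks. The authors' deposited table gave -0.9998 (adjusted p = 3.36e-07) and -0.95 (adjusted p = 2.68e-06).

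Corin is a gene of heart muscle cells, and the markers of those cells were mixed. The summed level of Myh6, Tnnt2, Tnni3, Actc1 and Ryr2 ranged from 356691 to 488413 in sham and from 322199 to 367338 in banding at 4 weeks, and from 432196 to 506303 and 279954 to 319147 at 8 weeks. Most of the difference in this sum came from Myh6, the fast myosin heavy chain. Its group means were 246101 in sham and 149143 in banding at 4 weeks, and 262327 and 106336 at 8 weeks. Myh6 and Tnni3, cardiac troponin I, were lower at both times. Tnnt2, cardiac troponin T, differed by -0.10 ± 0.10 (adjusted p = 0.544) and -0.22 ± 0.11 (adjusted p = 0.125), and Ryr2, the calcium release channel, by 0.19 ± 0.079 (adjusted p = 0.0912) and -0.01 ± 0.083 (adjusted p = 0.947). Actc1, cardiac actin, was higher at 8 weeks by 0.32 ± 0.12 (adjusted p = 0.0403). Of the ventricular markers, Myh7, the slow myosin heavy chain, and Irx4 were higher and Hey2 lower at both times, and Myl2 and Myl3 were not called. The summed level of these 5 ranged from 65661 to 80704 in sham and from 113015 to 175140 in banding at 4 weeks, and from 63816 to 88916 and 157726 to 193150 at 8 weeks. Most of that difference came from Myh7 alone. Its group means were 7811 in sham and 65216 in banding at 4 weeks, and 12045 and 111400 at 8 weeks. The part of muscle cell number in the fall of Corin was not tested.

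**Figure D3:**
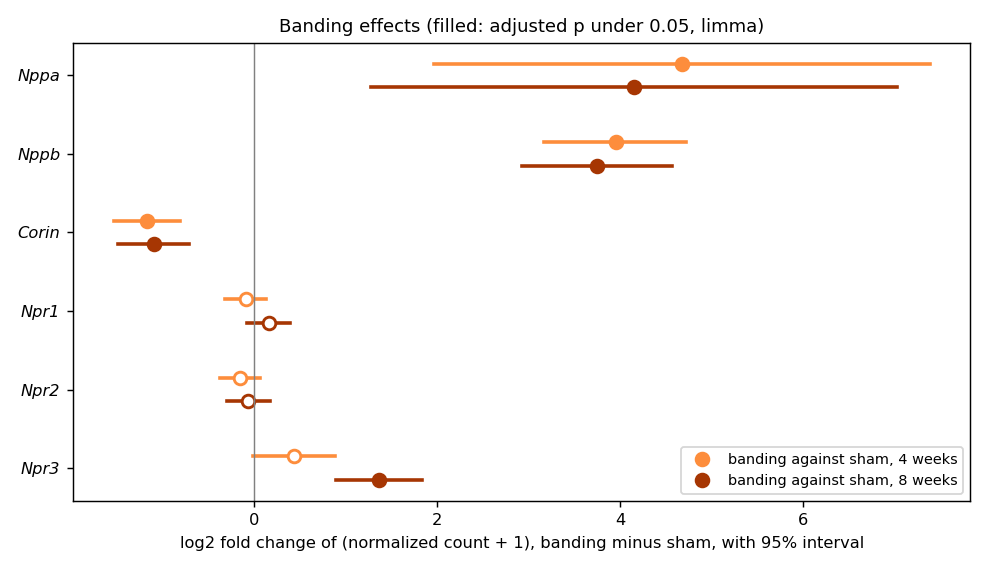
Banding minus sham for the 6 members at 4 and 8 weeks, as log2 fold changes of normalized count + 1 with 95% intervals, filled where the adjusted p was under 0.05. Nppa has the widest intervals, Corin is the member below 0 at both times among filled points, and Npr3 is filled at 8 weeks (1.37) and open at 4 weeks (0.44).

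Npr3, the clearance receptor gene, was the receptor gene that was called. Sham libraries at 4 weeks held 206, 260, 121, 258 and 166 normalized counts and banding libraries 304, 252, 190, 374 and 234, and the groups overlapped. The difference at 4 weeks, 0.44 ± 0.22 (interval -0.01 to 0.88), was not called (adjusted p = 0.175 in limma), and without the libraries rich in Myl7 it was 0.25 (adjusted p = 0.514). At 8 weeks sham held 245, 209, 162, 123 and 153, and banding held 362, 456, 629 and 391. The lowest banded library was above the highest sham library, with replicate 4 of banding above the rest. The rise was 2.58-fold, or 1.37 ± 0.23 log2 units (interval 0.90 to 1.84, adjusted p = 6.99e-05), and stayed between 1.21 and 1.49 when any 1 library was left out. Without the 7 libraries rich in Myl7 it was 1.66 (adjusted p = 3.42e-04).

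In order of level, Npr3 stood at 178 ± 48.1 in sham at 8 weeks, 202 ± 59.9 in sham at 4 weeks, 271 ± 70.6 in banding at 4 weeks and 460 ± 120 in banding at 8 weeks (SD). No pair of neighbours in this order differed at an adjusted p of 0.05: sham at 8 against 4 weeks gave -0.17 ± 0.22 (adjusted p = 0.715), banding against sham at 4 weeks is given above, and banding at 8 against 4 weeks gave 0.77 ± 0.23 (interval 0.29 to 1.24, adjusted p = 0.1 in limma). The effect of banding at 8 weeks exceeded that at 4 weeks by 0.93 ± 0.31 (interval 0.28 to 1.58), which was not called (adjusted p = 0.253 in limma). In the authors' deposited table Npr3 rose from 4 to 8 weeks in banding by 0.65 (adjusted p = 0.0403).

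Npr3 is expressed in the endocardium, the inner lining of the heart, among other cells. Of the endocardial markers Nfatc1, Plvap, Emcn and Vwf, Vwf, von Willebrand factor, was called at 8 weeks, higher by 0.74 ± 0.21 (adjusted p = 0.00946), and the 4 lay between -0.19 and 0.42 at 4 weeks (adjusted p = 0.162 to 0.93). Nfatc1, a transcription factor of the endocardium, differed by 0.61 ± 0.25 (adjusted p = 0.0646), and Plvap and Emcn by -0.09 ± 0.28 and 0.17 ± 0.097. The summed level of the 4 ranged from 2466 to 2917 in sham and from 2528 to 5644 in banding at 8 weeks, and from 2853 to 3797 and 2708 to 5088 at 4 weeks. Of the endothelial markers Pecam1, Cdh5, Tek, Kdr and Tie1, 1 of 5 was higher at 4 weeks (Kdr) and 3 at 8 weeks (Pecam1, Kdr and Tie1), with summed levels of 4550 to 5361 in sham and 5217 to 6301 in banding at 8 weeks. Markers of other cells also moved at 8 weeks. Of 5 markers of smooth muscle and pericytes 3 were higher, Pdgfrb (0.76 ± 0.10), Cspg4 (0.95 ± 0.12) and Rgs5 (0.44 ± 0.093), with summed levels of 3866 to 5351 in sham and 5718 to 6276 in banding. Of 4 macrophage markers 3 were higher, Cd68 (0.99 ± 0.20), Csf1r (0.80 ± 0.13) and Mrc1 (0.60 ± 0.16), with summed levels of 1464 to 2066 in sham and 2220 to 2727 in banding. Of 3 tested mesothelial and epicardial markers Wt1 was higher (0.91 ± 0.18), and of 5 fibroblast markers Pdgfra was lower (-0.57 ± 0.14). The part of these cells in the rise of Npr3 was not tested.

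Npr1, the receptor gene for ANP and BNP, ranged from 252 to 306 normalized counts in sham and from 232 to 295 in banding at 4 weeks, and from 162 to 245 and 210 to 262 at 8 weeks. Banding changed it by -0.09 ± 0.11 log2 units at 4 weeks (interval -0.31 to 0.13, adjusted p = 0.620) and by 0.16 ± 0.11 at 8 weeks (interval -0.07 to 0.40, adjusted p = 0.291). Without the libraries rich in Myl7 the difference at 8 weeks was 0.37 (adjusted p = 0.061). Npr2, the receptor gene for the C-type peptide, ranged from 218 to 319 and 233 to 292 at 4 weeks, and from 261 to 319 and 228 to 299 at 8 weeks. Its differences were -0.15 ± 0.10 (interval -0.37 to 0.06, adjusted p = 0.344) and -0.06 ± 0.11 (interval -0.29 to 0.17, adjusted p = 0.717). The intervals of both cyclase receptors at 8 weeks thus ended below the 0.90 at which that of Npr3 began.

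Set within each library, the log2 ratio of Npr3 to Npr1 was -0.48 ± 0.48 in sham and 0.05 ± 0.40 in banding at 4 weeks (SD, n = 5 each; exact permutation test, 2-sided, p = 0.111, adjusted 0.222). At 8 weeks the 5 sham libraries averaged -0.30 ± 0.35 and the 4 banded ones 0.91 ± 0.35, which is 1.21 apart. The highest sham library was at 0.02 and the lowest banded library at 0.64, and the exact permutation p was 0.0159, the smallest that 5 against 4 libraries can give, or 0.0635 adjusted over the 4 ratio tests. Levels of the 2 genes are not compared with each other, since transcript lengths were not used here.

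Between 4 and 8 weeks in sham, 0 of 6 members were called by limma, where 6.53% of all IDs were. At an unadjusted p of 0.05 there was 1, Npr1, which edgeR and DESeq2 also called as the only member. Npr1 was at 272 ± 23.7 normalized counts at 4 weeks and 216 ± 35.8 at 8 weeks (SD, n = 5 each), a change of -0.35 ± 0.11 (interval -0.57 to -0.125, adjusted p = 0.0538 in limma). Its highest library at 8 weeks, 245, was below the lowest at 4 weeks, 252, and 6.47% of all IDs were without overlap in this comparison. The call turned in 9 of 13 other settings and in 2 of 19 fits that left out 1 library: the adjusted p was 0.0466 with edgeR and 0.0325 with DESeq2, and without the libraries rich in Myl7 the change was -0.65 (adjusted p = 0.025). In the authors' deposited table it was -0.32 (adjusted p = 0.034). The other 5 members had adjusted p from 0.616 to 0.963.

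Between 4 and 8 weeks in banding, 0 of 6 members were called by limma, edgeR or DESeq2, where limma called 1.14% of all IDs, and 1 (Npr3) had an unadjusted p under 0.05. Nppb changed by 0.18 ± 0.40 (interval -0.65 to 1.00), Corin by 0.26 ± 0.18 (interval -0.13 to 0.64) and Nppa by 0.64 ± 1.4 (interval -2.23 to 3.51). The difference between both banding effects was called for 0 of 6 members by limma, edgeR or DESeq2, with 0.0275% of all IDs called by limma and 1 member (Npr3) at an unadjusted p under 0.05. All of these comparisons share samples, so they are not independent of each other.

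Beyond the 6 members, a list of 41 genes of the pathway was read from the same fit, of which 33 were tested. At 4 weeks 2 were higher and 9 lower in banding, with a median log2 fold change of -0.12 beside 0.000339 for all IDs. At 8 weeks 7 were higher and 9 lower, with a median of 0.01 beside 0.00727. The shares of 11 and 16 in 33 stand beside the 19.1% and 33.4% of all IDs named above. Over 13 other settings, that without the libraries rich in Myl7 among them, 1840 to 2338 IDs were called at 4 weeks and 2553 to 3891 at 8 weeks. Without the libraries rich in Myl7 the count of pathway genes at 4 weeks was again 2 and 9, but not all of the same genes. At 8 weeks it was 4 and 4. Beside the genes named as such below, Ide (adjusted p = 0.0648), Vasp (0.21) and Gucy1a1 (0.0543) at 8 weeks and Srf (0.133) at 4 weeks were then not called. From 4 to 8 weeks in sham 2 were lower, Pde1a and Vasp, while edgeR called 1 higher and 2 lower and DESeq2 1 higher and 3 lower. In banding over time and for the difference of effects, 0 were called by limma, edgeR and DESeq2, with 7 and 5 at an unadjusted p under 0.05 in limma.

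**Figure D4:**
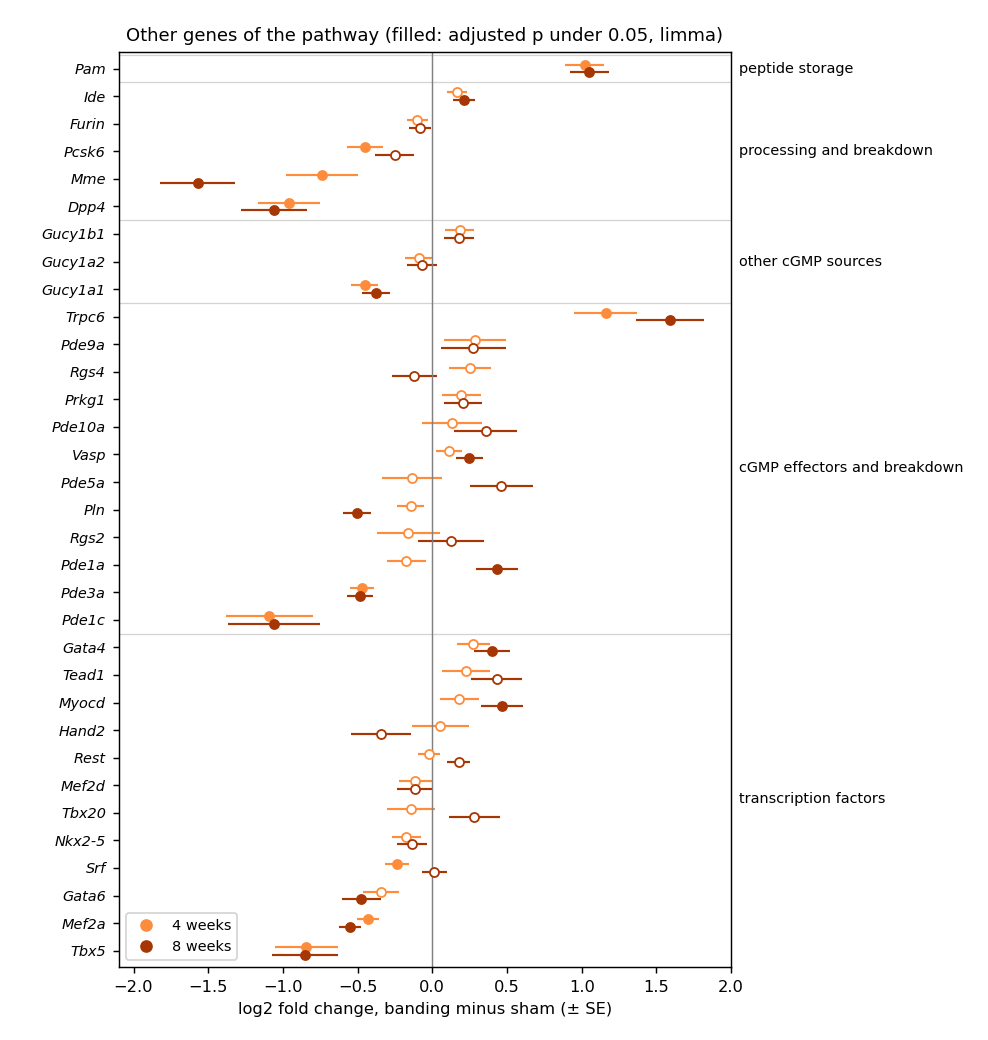
Log2 fold changes, banding minus sham, ± SE for the 33 tested pathway genes at 4 and 8 weeks, by role, filled where the adjusted p was under 0.05. Trpc6 (1.16 and 1.59) and Pam (1.02 and 1.05) lie farthest to the right, and Mme at 8 weeks (-1.57) farthest to the left.

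Pam encodes an enzyme that amidates peptides and is also a major membrane protein of the atrial granules that store ANP. Its level rose from 8376 ± 1183 to 16965 ± 2462 normalized counts at 4 weeks (1.02 ± 0.13, adjusted p = 4.45e-06) and from 10459 ± 2389 to 21414.5 ± 2462 at 8 weeks (1.05 ± 0.13, adjusted p = 2.71e-06), and without the libraries rich in Myl7 the rise was 1.12 and 1.16. The granule proteins Chga and Chgb were too low to be tested, and so were the ligand genes Nppc and Ostn, the last of which was listed at 0 in every library.

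Of 5 genes for processing and breakdown, 3 fell at 4 weeks, while 2 fell and 1 rose at 8 weeks. Mme encodes neprilysin, which degrades natriuretic peptides, and fell by 0.74 ± 0.24 (adjusted p = 0.0324) and 1.57 ± 0.25 (adjusted p = 4.96e-05), from a low level of 29.6 ± 3.49 and 43.2 ± 6.87 in sham to at most 25.5 and 24.0 in banding. Dpp4, a peptidase that trims the end of BNP, fell by 0.96 ± 0.21 (adjusted p = 0.00206) and 1.06 ± 0.22 (adjusted p = 0.000737). Without the libraries rich in Myl7 the fall of Mme at 4 weeks (-0.91, adjusted p = 0.0624) and that of Dpp4 at 8 weeks (-0.59, adjusted p = 0.0973) were not called. Pcsk6, a convertase that activates corin in the mouse heart, fell at 4 weeks by 0.45 ± 0.12 (adjusted p = 0.0107) and differed by -0.25 ± 0.13 at 8 weeks (adjusted p = 0.139). Ide, the insulin-degrading enzyme, which also cleaves ANP, rose at 8 weeks by 0.21 ± 0.073 (adjusted p = 0.030).

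Of 12 tested genes for cGMP effectors and breakdown, 1 rose and 2 fell at 4 weeks, and 3 rose and 3 fell at 8 weeks. Trpc6, a cation channel that the cGMP-dependent kinase inhibits, rose from 31.7 ± 8.26 to 72.2 ± 18.9 normalized counts at 4 weeks (1.16 ± 0.21, adjusted p = 0.000434) and from 26.2 ± 5.95 to 80.4 ± 16.8 at 8 weeks (1.59 ± 0.23, adjusted p = 1.1e-05). Pde3a, a phosphodiesterase that cGMP inhibits, fell by 0.47 ± 0.082 and 0.48 ± 0.087 (adjusted p = 0.000245 and 0.000169). Pde1c, a calcium-dependent phosphodiesterase, fell by 1.09 ± 0.29 and 1.06 ± 0.31 (adjusted p = 0.0110 and 0.0109), and its fall at 8 weeks was not called without the libraries rich in Myl7 (-0.59, adjusted p = 0.359). Pln, phospholamban, the brake on the calcium pump, fell at 8 weeks by 0.50 ± 0.095 (adjusted p = 0.000269). Pde1a was higher in banding than in sham at 8 weeks by 0.43 ± 0.14 (adjusted p = 0.0216). Its group means were 218 in sham and 192 in banding at 4 weeks, and 155 and 210 at 8 weeks. The sixth gene called in this set was Vasp, a substrate of the kinase, which was named after its values were seen (0.25 ± 0.092 at 8 weeks, adjusted p = 0.0425). In sham, Pde1a and Vasp were lower at 8 than at 4 weeks, by 0.50 and 0.34 (adjusted p = 0.0254 and 0.0207 in limma). In banding neither was called over time. Of the other cGMP sources, Gucy1a1, a subunit of the cyclase that nitric oxide activates, fell by 0.45 ± 0.088 and 0.38 ± 0.093 (adjusted p = 0.000713 and 0.00337), and the other 2 subunits were not called.

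Of 12 tested transcription factors and cofactors known to act on the promoters of peptide genes, 3 were lower at 4 weeks, and 2 were higher and 3 lower at 8 weeks. Mef2a fell by 0.43 ± 0.072 (adjusted p = 0.000149) and 0.55 ± 0.076 (adjusted p = 7.66e-06). Tbx5, which is richer in atria than in ventricles, fell by 0.84 ± 0.21 (adjusted p = 0.00517) and 0.85 ± 0.22 (adjusted p = 0.00406), and stood at -0.44 at 8 weeks without the libraries rich in Myl7 (adjusted p = 0.107). The GATA factors, whose motif is marked in both promoters above, were called in opposite directions: Gata4 was higher at 8 weeks by 0.40 ± 0.12 (adjusted p = 0.0121) and Gata6 lower by 0.48 ± 0.13 (adjusted p = 0.008). Without those libraries Gata4 kept its call (0.42, adjusted p = 0.0414) and Gata6 did not (-0.38, adjusted p = 0.0788). Myocd, myocardin, a partner of the serum response factor, was higher at 8 weeks by 0.47 ± 0.14 (adjusted p = 0.0113), and was not called without those libraries (0.30, adjusted p = 0.185). Srf, the serum response factor itself, named after its values were seen, was lower at 4 weeks by 0.24 ± 0.079 (adjusted p = 0.0377). Gata4 and Gata6 were not called at 4 weeks (0.27 and -0.34, adjusted p = 0.0924 and 0.058). Tead1, a TEAD factor, was not called at 4 or 8 weeks (0.23 and 0.43, adjusted p = 0.359 and 0.0523). Nor was Nkx2-5 (-0.175 and -0.136, adjusted p = 0.232 and 0.329).

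Likeness of pattern was described by the correlation of log2 levels over all 19 libraries, which share the 4 groups, so that genes that differ between banding and sham resemble each other. Among the genes most like Nppb were Rnd1 (r = 0.964, rho = 0.828) and Efhd2 (0.963, 0.888). Nppa was most like Ccn5 (r = 0.939, rho = 0.730), Mrc1 (0.905, 0.807) and C2 (0.902, 0.770), and Corin most like Cog2 (0.956, 0.933), Klhl38 (0.949, 0.921) and Rab3b (0.949, 0.940). Npr3 was most like Tbkbp1 (r = 0.894, rho = 0.870), Arih1 (0.877, 0.811) and Atrn (0.874, 0.767). Npr1 and Npr2, which did not follow the groups, had lower values, with Chsy1 at 0.762 (rho 0.782) for Npr1 and Zcchc24 at 0.803 (rho 0.723) for Npr2. Among the members themselves, Nppa and Nppb had r = 0.837 and Nppb and Corin r = -0.834.

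With the group means removed, which leaves the differences between libraries of a group, Nppa and Nppb still had r = 0.770 over the 19 libraries, whereas Nppb and Corin had r = -0.08 and Npr3 and Corin r = -0.002. Within groups Nppa spanned 186 and 246 times in sham, against 3.48 and 1.54 times in banding. Its values here thus rest mainly on the sham libraries, which differed in atrial transcripts. The genes then most like Nppa were S1pr2 (r = 0.931, rho = 0.972), Gpm6b (0.918, 0.896) and Csf1 (0.910, 0.896), none of which was among the 3 over all libraries. For Corin they were Sec14l5 (0.921, 0.826), Bche (0.829, 0.614) and Vamp1 (0.819, 0.628), for Nppb Selenom (0.864, 0.828), Rpl3 (0.839, 0.849) and rnf141 (0.825, 0.768), and for Npr3 Kif5b (0.859, 0.881), Hectd2 (0.852, 0.868) and Slc3a1 (0.846, 0.851). These are the highest of all IDs tested and come with no test.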

How the data were processed

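Per the labels' protocols, tissue was snap frozen, RNA was isolated with Trizol, and libraries were made from 800 ng with a kit that removes ribosomal RNA. STAR, DESeq2 and rn6 are named in the submitters' processing notes. Neither the counting program nor the use of strand was given in the sources used here. Deposited by the authors were a signal (normalized counts, reads divided by a size factor) for 18282 IDs in 19 of 20 labelled samples, and comparison tables whose log2 fold changes, Wald scores, p-values and adjusted p-values are the authors' own. In each library 100% of the deposited values were whole multiples of 1 step within 0.001, which gave back the reads. Directions in the deposited tables were set from the group means. The sizes of the authors' fold changes may be another measure than those fitted here. Members were matched by the symbols in the deposited tables, and other genes by these or by a RefSeq table of GRCr8, used for names, which covered 17359 IDs.

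limma 3.58.1 (R 4.3.3) was run on log2 of the deposited values plus 1, as 1 fit of 4 groups, 2-sided, with an empirical Bayes trend. It covered the 10926 IDs that reached 10 in 4 or more libraries, and p-values were adjusted by Benjamini-Hochberg over all of them. All 6 members passed that filter in every library. Fold changes on this scale understate those of low genes. Ratios within a library used SciPy 1.17.1. The fit was tested on simulated data.

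All 6 members were reported in every comparison. Pathway genes called at 4 or 8 weeks were named, up to 5 per role with the smallest p, and for likeness the 3 highest Pearson r. Tead1 and Nkx2-5, which were not called, were named for the promoter motifs. The members, the pathway and marker lists and the Myl7 limit of 1000 were chosen with earlier results of these data known. Alternatives were pseudocounts of 0.5 and 5, no filter, a minimum mean of 50, TMM and quantile scaling, edgeR 4.0.16, DESeq2 1.42.0, a replicate block, a robust fit, only the groups compared, an atrial covariate, and leaving out libraries. Antisense and overlapping genes could not be told apart. Some genes that these rules would name are not reported here.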

Additional observations from a re-analysis of the deposited data

Results flagged for a closer look

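Of 24 sets of values (6 members in 4 groups), 2 held a library that stood apart from the rest of its group by the gap to its nearest neighbour, relative to the range of normalized counts. Both were Nppa in sham, where the highest value was 186 times the lowest at 4 weeks and 246 times at 8 weeks. Chance alone would set apart about 1 in 20 such sets if their values were normally distributed. The gap was not taken on the log2 scale, on which groups and slopes were compared. Replicate 1 of sham at 4 weeks held 14197 normalized counts, with a gap of 0.716 of the range to the next library. Replicate 1 of sham at 8 weeks held 30976, with a gap of 0.780 of the range. Both libraries had the highest Myl7 of their group, 7268 and 17580, and the part of that in the Nppa values was not tested.

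The slope of Nppa on the atrial score differed between banding and sham by -0.87 ± 0.12 log2 units per unit of the score (limma, adjusted p = 0.00513). The slope was 0.98 in sham and 0.11 in banding, where its interval was -0.11 to 0.32. The difference was not called without replicate 3 of banding at 8 weeks (-0.67, adjusted p = 0.133) or with Myl7 alone as the score (adjusted p = 0.0551).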

How the results depend on the processing

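Nppb, Corin and, at 8 weeks, Npr3 kept their direction and their call in each of the 32 alternatives for banding against sham. Nppa kept its direction in each, and at 4 weeks its call in all but edgeR and DESeq2 (2.39, adjusted p = 0.160). Its range was 2.38 to 6.85 at 4 weeks and 1.80 to 7.58 at 8 weeks, where it was also not called in a robust fit (adjusted p = 0.0701). Without 1 library it was 3.88 to 5.76 at 4 weeks and 3.25 to 5.23 at 8 weeks. Members called at 8 weeks then numbered 3 to 4.

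In sham from 4 to 8 weeks the number of members called was 1, not 0, with a minimum mean of 50, TMM factors, quantile normalization, edgeR, DESeq2, the replicate block, the robust fit, the atrial covariate or no libraries rich in Myl7, and 0 to 1 without 1 library. IDs called there numbered 714, or 157 without the libraries rich in Myl7, 1092 with the covariate and 423 to 848 without 1 library. In banding over time they numbered 125, or 64 with no filter, 271 with DESeq2, 50 without the libraries rich in Myl7, 272 with the covariate and 38 to 150 without 1 library. For the difference of banding effects they numbered 3, or 5 with TMM, 6 with quantile normalization, 77 with DESeq2, 120 with the covariate and 2 to 23 without 1 library.

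The slope of Nppb in sham was 0.15 to 0.23 without 1 library and 0.161 (adjusted p = 0.102) with Myl7 alone, and its slope in banding -0.0583 to 0.0639 without 1 library. The difference of Nppa slopes was -0.94 to -0.67 without 1 library and -0.868 (adjusted p = 0.0551) with Myl7 alone. IDs with a called slope numbered 207 to 529 in sham, 6 to 24 in banding and 1 to 23 for the difference without 1 library. The log2 ratio of Npr3 to Npr1 at 8 weeks was 1.28 (p = 0.2) without the libraries rich in Myl7 and 1.24 (p = 0.125) with the replicate block, each an exact permutation test that can give no smaller p.

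Changes of sign were found among differences that were not called. Without the libraries rich in Myl7, Npr2 was at 0.0424 for banding at 8 weeks and 0.0632 for time in sham, and Nppa at 0.73 for the difference of effects, which was 0.47 with the covariate. Without 1 library the ranges crossed 0 for Npr2 at 8 weeks (-0.112 to 0.0192), Npr2 and Nppb over time in sham (-0.107 to 0.0296 and -0.0159 to 0.618), the difference of effects of Nppa (-1.62 to 0.55), Nppb (-0.44 to 0.19) and Corin (-0.12 to 0.24), and the ratio of Nppb to Nppa at 8 weeks (-1.29 to 0.46). The causes were not tested.

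The replicate numbers did not pair the samples: of 27 pairs with the same number 7 correlated above 0.1 (range -0.28 to 0.32), and 14 of 54 library-to-group comparisons were best with their own number. Apart from Npr1 in sham, the block changed no member's call. Summing over several IDs was not run, because each member had 1. The banding group at 8 weeks has 4 libraries, which limits the precision of its means.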
